A study of Mus musculus with 30 samples.

Results

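The genes described here encode the proteins of the cytosolic ribosome. They were taken from the deposited tables by symbol, as every entry named Rpl or Rps with a number, Rplp0 to Rplp2, or Rpsa, without the Rps6k kinases and without symbols that end in -ps and a number. The choice used no measured value. It gave 88 entries of 19470 in the lung table and 88 of 18845 in the spleen table, in each case 85 distinct symbols. Of these symbols 77 are proteins of the standard ribosome, 46 of the large (60S) and 31 of the small (40S) subunit, and these are called the 77 ribosomal protein genes below. The other 8 symbols are Rpl36al, Rpl22l1, Rps27l, Rpl3l, Rpl7l1 and Rpl39l, which are paralogs or related proteins, Rps4l, a transcribed pseudogene in the annotation, and Rps19bp1, a nucleolar protein that binds Rps19. Rps27 had 2 entries and Rpl29 had 3, and in each case the entry with the highest mean was taken as the gene. A group mean of at least 10 was reached in all groups by 85 of the 88 entries in either tissue.

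C57BL/6 mice aged 8 weeks, of 3 genotypes, gave messenger RNA from lung and spleen: a lincRNA-Cox2 knockout, a lincRNA-Cox2 mutant and the wild type. LincRNA-Cox2 is a noncoding RNA made beside Ptgs2, and the lines ask what the RNA and its locus regulate. Per genotype and tissue, 3 libraries came from mice given intraperitoneal lipopolysaccharide (LPS, an endotoxin of Gram-negative bacteria sensed by Toll-like receptor 4) at 20 mg/kg for 6 h, and 2 from mice labelled PBS. The labels do not say how either line was made, or that replicates are separate animals, so an adjusted p may measure technical spread only. All values are the authors' group means of counts divided by size factors, without the single libraries, and libraries held an estimated 5.20 to 17.3 M reads (lung) or 1.83 to 8.95 M reads (spleen).

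LincRNA-Cox2 itself was listed at 0 in knockout and mutant lungs under both treatments, against 30.2 with LPS and 34.8 with PBS in wild type lungs. The lung markers Sftpc, Sftpb, Scgb1a1, Ager and Cldn18 summed to between 76120 and 112100 in the lung groups, and to between 640 and 2255 in the spleen groups. The lymphocyte markers of the spleen summed to between 2806 and 11110 in spleen and to between 422 and 1254 in lung. The tissues were normalized separately, so shares of the summed means were compared. The lung markers held 0.923% to 1.437% in lung and 0.018% to 0.045% in spleen. The spleen markers held 0.057% to 0.312% in spleen and 0.004% to 0.017% in lung, so each tissue held its own markers. The LPS groups also differed in sex-linked RNA. Xist in lung had a mean of 23.2 in the knockout, 4510 in the mutant and 14.5 in the wild type with LPS, whereas the PBS groups had between 1910 and 3660. The Y-linked Ddx3y in lung, by its higher entry, had 1130 with LPS and 447 with PBS in knockout mice, 4.73 with LPS and 317 with PBS in mutants, and 1150 with LPS and 294 with PBS in wild types. In spleen it had 14 with LPS and 227 with PBS in mutants. Xist in spleen with LPS had 33.7 in the knockout, 4670 in the mutant and 31.3 in the wild type. Treatment and the sex makeup of the groups cannot be told apart in any of the genotypes. With LPS, genotype and sex makeup likewise cannot be told apart where the mutant is compared with the knockout or the wild type, in either tissue.

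A ribosome joins a small subunit, which reads the message, to a large subunit, which forms the peptide bond, and each cytosolic ribosomal protein is needed in about equal number. Their messages share a short run of pyrimidines at the 5′ end, the terminal oligopyrimidine (TOP) tract, through which the kinase mTORC1 and the protein LARP1 control their translation and stability together. Lymphocytes that become activated are known to raise ribosome production, starting in the nucleolus with Myc, RNA polymerase I and the assembly factors. Because the genome holds many processed copies of ribosomal protein genes, reads that fit both a gene and a copy cannot be assigned with certainty.

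The start sites are shown first because these messages are known to share the tract. RefSeq promoters on GRCm38.p6 were given for 64 of the genes, and 55 of these, or 85.9%, had a C followed by at least 6 bases that are each C or T within 50 bases of the annotated start, on the gene's strand. The same was found for 44.8% of 17492 protein-coding genes, so the run is common in this window and marks no control site by itself. Below are 30 bases, with the run in capitals, for genes the results turn on: high responders of the spleen (Rps15, Rpl38, Rps24), low responders of the spleen (Rps16, Rpl39), the S6-kinase substrate Rps6, and the pairs Rps27 with Rps27l and Rpl22 with Rpl22l1.
Rps15: cagcccgtaCTTCCTTTTCCgagtaaccgc
Rpl38: gaagcctcgttCTTTCCCCgttctcttcgg
Rps24: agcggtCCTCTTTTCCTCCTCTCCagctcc
Rps16: aattcacacgtCCCCTCTCaggcttcgacg
Rpl39: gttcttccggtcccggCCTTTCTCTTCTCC
Rps6: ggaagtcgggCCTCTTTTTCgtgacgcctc
Rps27: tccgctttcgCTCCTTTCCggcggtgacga
Rps27l: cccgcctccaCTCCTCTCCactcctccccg
Rpl22: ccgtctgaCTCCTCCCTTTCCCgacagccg
Rpl22l1: gcaagcccgttCTCTTCCCacggctgcagc
The windows lie at chr10:80292447-80292476 for Rps15, chr11:114668569-114668598 for Rpl38, chr14:24490711-24490740 for Rps24, chr7:28350632-28350661 for Rps16, chr4:152325679-152325708 for Rpl22, chr3:28805500-28805529 for Rpl22l1 and chr9:66946054-66946083 for Rps27l, all on the plus strand. Those on the minus strand lie at chrX:37085173-37085202 for Rpl39, chr4:86857349-86857378 for Rps6 and chr3:90213631-90213660 for Rps27. Counted from the annotated start, with upstream negative, the runs began at 0 in Rpl38, -1 in Rps6, -2 in Rps27 and 3 in Rpl22l1. They began at 25 in Rps15, 36 in Rpl39, -46 in Rps16, -39 in Rpl22, -36 in Rps24 and -22 in Rps27l. A run that far from the start cannot be taken as the tract at the 5′ end. Among the high responders of the spleen the run had 8 bases in Rpl38, 11 in Rps15 and 18 in the window shown for Rps24. Among the low responders it had 8 in Rps16 and at least 14 in Rpl39, where it meets the end of the searched bases. The lengths thus overlapped, and so few genes cannot show whether length and response go together. The genes lay on 19 chromosomes, at most 14 on any one, and 4 of the symbols were X-linked.

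Ribosomal protein genes took a larger share of the spleen table than of the lung table in every group. The entries together held 2.47% of the summed means in knockout lungs with LPS and 1.77% with PBS, 2.10% with LPS and 2.06% with PBS in mutant lungs, and 1.92% with LPS and 2.26% with PBS in wild type lungs. In spleen they held 5.61% with LPS and 6.54% with PBS in knockout mice, 7.54% with LPS and 6.25% with PBS in the mutant, and 7.40% with LPS and 5.01% with PBS in wild type mice. The share was thus higher with LPS in knockout lung and in mutant and wild type spleen, lower with LPS in wild type lung and knockout spleen, and nearly equal in mutant lung. The tissues were normalized separately, so this comparison of the tissues is made by shares of each table. Marker sums and levels per kb stand on the scale of their own tissue. In bulk tissue fewer cells of a type and less RNA per cell cannot be told apart.

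**Figure D1:**
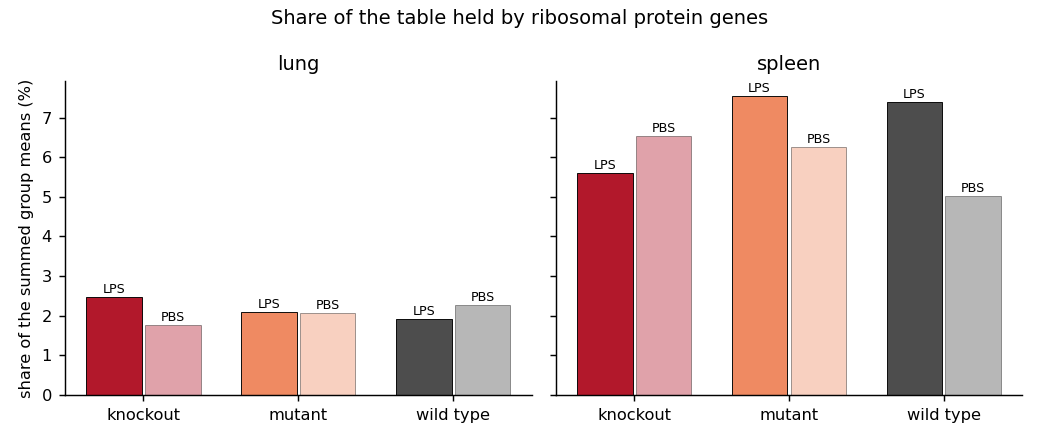
Share of the summed group means held by all 88 entries (%), for LPS (left bar) and PBS (right bar, paler) in each genotype and tissue. The spleen bars lie between 5.01% and 7.54%, all above the lung bars of 1.77% to 2.47%.

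Levels per kb of transcript lay close together for most of the 77 genes. In wild type mice with PBS the median was 2669 normalized counts per kb in lung and 2885 in spleen, and the upper quartile was 1.80 times the lower in lung and 1.54 times in spleen. The highest per kb in lung were Rps15 at 5500, Rplp1 at 5431 and Rpl21 at 5417. In spleen they were Rplp1 at 5631, Rps12 at 5486 and Rps15 at 5400. Rps15 lies near the decoding site of the small subunit, Rps12 is another small subunit protein, Rpl21 belongs to the large subunit, and Rplp1 is part of the stalk. The lowest in lung were Rps20 at 383, Rpl39 at 897 and Rpl37 at 1156, and in spleen Rps20 at 464, Rpl37 at 1135 and Rpl36 at 1462. The value of Rps20 rests on an annotated transcript of 3706 bases, the longest of all, against a median of 729. Across the 77 genes the levels per kb in the 2 tissues had a Spearman correlation of 0.91, where both share the transcript lengths.

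With LPS the lung ribosomal protein genes were higher than with PBS in the knockout, higher by less in the mutant and close to the PBS level in the wild type, or level in the mutant and lower in the wild type if the summed means are set equal. The median log2 ratio of LPS over PBS means over the 77 genes was 0.91 in knockout lungs (1.88-fold), 0.51 in mutant lungs (1.43-fold) and 0.10 in wild type lungs (1.07-fold), while the median over all genes lay between -0.03 and -0.01. The ratio was above 0 for 77 of 77 genes in the knockout, 76 in the mutant and 56 in the wild type. At least 1.5-fold higher were 73 of 77 genes in knockout lungs, beside 27% of all genes, 25 in mutant lungs, beside 25.1%, and none in wild type lungs, beside 22.8%. At least 2-fold higher were 24 in the knockout, beside 16.9% of all genes, and 0 in the mutant and the wild type, beside 15.5% and 13.9%. The mutant's count at 1.5-fold is thus near its background, although its median is not. Between 85 and 87 of the 88 entries reached a mean of 10 under either treatment in a genotype. No test of LPS against PBS was possible without single libraries, so these are descriptions of the group means.

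The order of the genotypes held gene by gene. The log2 ratio was highest in the knockout, middle in the mutant and lowest in the wild type for 77 of 77 genes, beside 21.8% of all genes. The difference of the log2 ratios, knockout minus wild type, had a median of 0.83 and ran from 0.34 to 1.197. Both ends of the ratio contributed. Under LPS the level was highest in the knockout, then the mutant, then the wild type in 72 of 77 genes, beside 19.2% of all genes, and with PBS it was lowest in the knockout, then the mutant, then the wild type in 66 of 77, beside 19.5%. The points share the same libraries and move together, so 77 genes are not 77 observations.

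**Figure D2:**
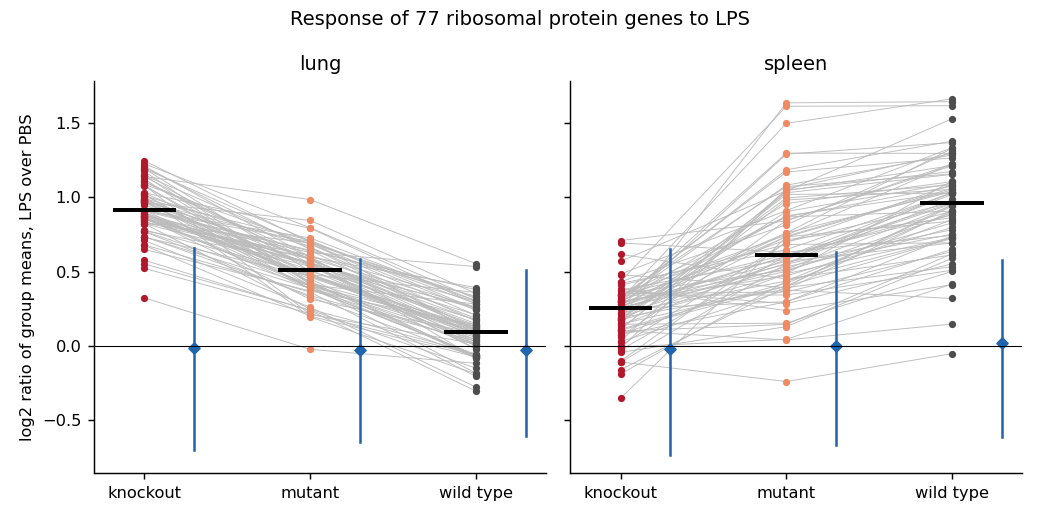
Log2 ratio of LPS over PBS group means for the 77 ribosomal protein genes (points, joined by gene) in knockout, mutant and wild type mice, with their median (black bar) and, in blue, the median and quartiles of all genes. The lines run down from knockout to wild type in lung (medians 0.91, 0.51 and 0.10) and up in spleen (0.25, 0.62 and 0.96).

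The stalk proteins, which recruit the elongation factors to the large subunit, followed that order in lung. Rplp0, the base of the stalk, had 7210 normalized counts with LPS and 3690 with PBS in knockout lungs, 7330 with LPS and 4080 with PBS in mutant lungs, and 6340 with LPS and 4960 with PBS in wild type lungs. For Rplp1, one of its arms, the means were 3800 with LPS and 1860 with PBS in knockout mice, 3290 with LPS and 2260 with PBS in mutant mice, and 2670 with LPS and 2710 with PBS in wild type mice. Rplp2, the other arm, gave 1750 with LPS and 793 with PBS in knockout mice, 1460 with LPS and 995 with PBS in the mutant, and 1120 under both treatments in wild type mice. All 3 were about doubled in knockout lungs, and both arms were level in wild type lungs.

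Among proteins of the small subunit, Rps6, the substrate of S6 kinase downstream of mTORC1, averaged 6910 with LPS and 3500 with PBS in knockout lungs, 5690 with LPS and 3780 with PBS in mutant lungs, and 5050 with LPS and 4210 with PBS in wild type lungs. Its log2 ratios were 0.98, 0.59 and 0.26. Rpsa, also known as the laminin receptor, averaged 8730 with LPS and 4460 with PBS in knockout mice, 7220 with LPS and 4480 with PBS in mutant mice, and 6650 with LPS and 5630 with PBS in wild type mice. Rps3, at the entry of the message channel, was at 3940 with LPS and 2210 with PBS in knockout mice, 3480 with LPS and 2280 with PBS in mutant mice, and 3220 with LPS and 2830 with PBS in wild type mice. These messages were somewhat higher with LPS in wild type lungs as well, more so in both lines. Rps27a, made as a fusion to ubiquitin, had 2700 with LPS and 1180 with PBS in knockout mice, 2220 with LPS and 1360 with PBS in mutant mice, and 1840 with LPS and 1740 with PBS in wild type mice. Rps24 had 7000 with LPS and 3250 with PBS in knockout mice, 5430 with LPS and 3590 with PBS in mutant mice, and 4370 with LPS and 4340 with PBS in wild type mice, where the means were level. The median log2 ratio was 0.96 for the small and 0.89 for the large subunit in knockout lungs, 0.58 and 0.48 in mutant lungs, and 0.10 and 0.09 in wild type lungs, so the subunits differed by little.

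In the large subunit, Rpl5 and Rpl11 carry the 5S ribosomal RNA and, when left free, bind the p53 ligase Mdm2. Rpl5 averaged 5420 with LPS and 2950 with PBS in knockout lungs, 4340 with LPS and 3110 with PBS in mutant lungs, and 3970 with LPS and 3710 with PBS in wild type lungs. Rpl11 averaged 2810 with LPS and 1520 with PBS in knockout mice, 2310 with LPS and 1650 with PBS in mutant mice, and 2020 with LPS and 1980 with PBS in wild type mice. Rpl13a, which in human monocytes leaves the ribosome after interferon gamma and silences inflammatory messages, averaged 3960 with LPS and 2470 with PBS in knockout mice, 3420 with LPS and 2660 with PBS in mutant mice, and 2890 with LPS and 3330 with PBS in wild type mice. Its log2 ratios of 0.68, 0.36 and -0.20 lay below the median in each genotype.

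By the mean ratio over the genotypes, the highest entries of the lung were Rpl7l1 at 0.96, Rps2 at 0.89, Rpl36al at 0.89, Rpl22l1 at 0.81 and Rpl12 at 0.78. Rps2, a small subunit protein at the message entry, averaged 5050 with LPS and 2290 with PBS in knockout lungs, 3980 with LPS and 2010 with PBS in mutant lungs, and 3760 with LPS and 2560 with PBS in wild type lungs. Rpl12, at the base of the stalk, averaged 3300 with LPS and 1410 with PBS in knockout mice, 2640 with LPS and 1520 with PBS in mutant mice, and 2330 with LPS and 1870 with PBS in wild type mice. The lowest were Rps4l at -0.15, Rpl22 at 0.06, the second entry of Rpl29 at 0.09, the second entry of Rps27 at 0.17 and Rps21 at 0.17. Rps21, a small subunit protein, averaged 1070 with LPS and 717 with PBS in knockout mice, 1070 with LPS and 907 with PBS in mutant mice, and 806 with LPS and 995 with PBS in wild type mice. Of the 5 highest, 3 are paralogs or related proteins: Rpl7l1, Rpl36al and Rpl22l1.

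In spleen the genotypes stood in the opposite order: the ribosomal protein genes were about doubled with LPS in the wild type, higher by less in the mutant and least in the knockout, where they were lower with LPS if the summed means are set equal. The median log2 ratio of LPS over PBS was 0.25 in knockout spleens (1.19-fold), 0.62 in mutant spleens (1.53-fold) and 0.96 in wild type spleens (1.95-fold), with a median between -0.02 and 0.02 over all genes. Of the 77 genes, 67 were above 0 in the knockout, 76 in the mutant and 76 in the wild type. At least 1.5-fold higher were 3 in knockout spleens, beside 27% of all genes, 42 in mutant spleens, beside 26.4%, and 68 in wild type spleens, beside 24.9%. At least 2-fold higher were 0, beside 16.6%, in the knockout, 15, beside 15.3%, in the mutant, and 36, beside 13.5%, in the wild type. The 3 in the knockout were Rpl27, Rpl7a and Rps2. The order wild type, mutant, knockout was kept in 68 of 77 genes, beside 23.9% of all genes. The difference of the log2 ratios, knockout minus wild type, had a median of -0.74 and ran from -1.495 to 0.00. Again both ends differed: with LPS the knockout was lowest in 66 of 77 genes, beside 39.6% of all genes, and with PBS the wild type was lowest in 75, beside 39.0%.

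In mutant and wild type mice the spleen genes spread more widely than those of the lung. The ratios ran from -0.24 to 1.64 in mutant spleens and from -0.05 to 1.66 in wild type spleens, beside -0.02 to 0.99 in mutant lungs and -0.30 to 0.55 in wild type lungs. Rps15 averaged 4850 with LPS and 4260 with PBS in knockout spleens, 13300 with LPS and 4280 with PBS in mutant spleens, and 8440 with LPS and 2700 with PBS in wild type spleens. Rpl38, which in mouse embryos is needed to translate Hox messages, averaged 1540 with LPS and 1240 with PBS in knockout mice, 3250 with LPS and 1150 with PBS in mutant mice, and 2580 with LPS and 814 with PBS in wild type mice. Rpl36, a large subunit protein, averaged 1140 with LPS and 844 with PBS in knockout mice, 2430 with LPS and 794 with PBS in mutant mice, and 1720 with LPS and 560 with PBS in wild type mice. These 3 had log2 ratios of 1.498 to 1.66 in mutant and wild type spleens and of 0.19 to 0.43 in knockout spleens. Rps24 averaged 8310 with LPS and 6680 with PBS in knockout spleens, 14400 with LPS and 6330 with PBS in mutant spleens, and 12400 with LPS and 4770 with PBS in wild type spleens. The highest mean ratios over the genotypes were those of Rps19bp1 at 1.36, the second entry of Rpl29 at 1.23, Rpl36 at 1.22, Rpl38 at 1.16 and Rps15 at 1.16.

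At the other end stood genes with mean ratios near 0. Rps4x, a small subunit protein coded on the X chromosome, averaged 4260 with LPS and 4590 with PBS in knockout spleens, 4000 with LPS and 4720 with PBS in mutant spleens, and 4140 with LPS and 4290 with PBS in wild type spleens. Rps3a1, another small subunit protein, averaged 6110 with LPS and 5690 with PBS in knockout mice, 5700 with LPS and 5540 with PBS in mutant mice, and 5540 with LPS and 5000 with PBS in wild type mice. Rpl30 averaged 1980 with LPS and 1990 with PBS in knockout mice, 1950 with LPS and 1890 with PBS in mutant mice, and 2070 with LPS and 1550 with PBS in wild type mice. Their mean log2 ratios were -0.13, 0.10 and 0.15, and Rps16 at 0.23 and Rpl39 at 0.24 came next. Rps16, a small subunit protein, averaged 2330 with LPS and 2400 with PBS in knockout spleens, 2660 with LPS and 2430 with PBS in mutant spleens, and 2920 with LPS and 1940 with PBS in wild type spleens. In the wild type Rps16 was at 1.505-fold. Rps4x, Rps3a1, Rpl30, Rpl39, Rpl15, Rps3, Rps15a, Rps18 and Rpl7 were under 1.5-fold there.

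**Figure D3:**
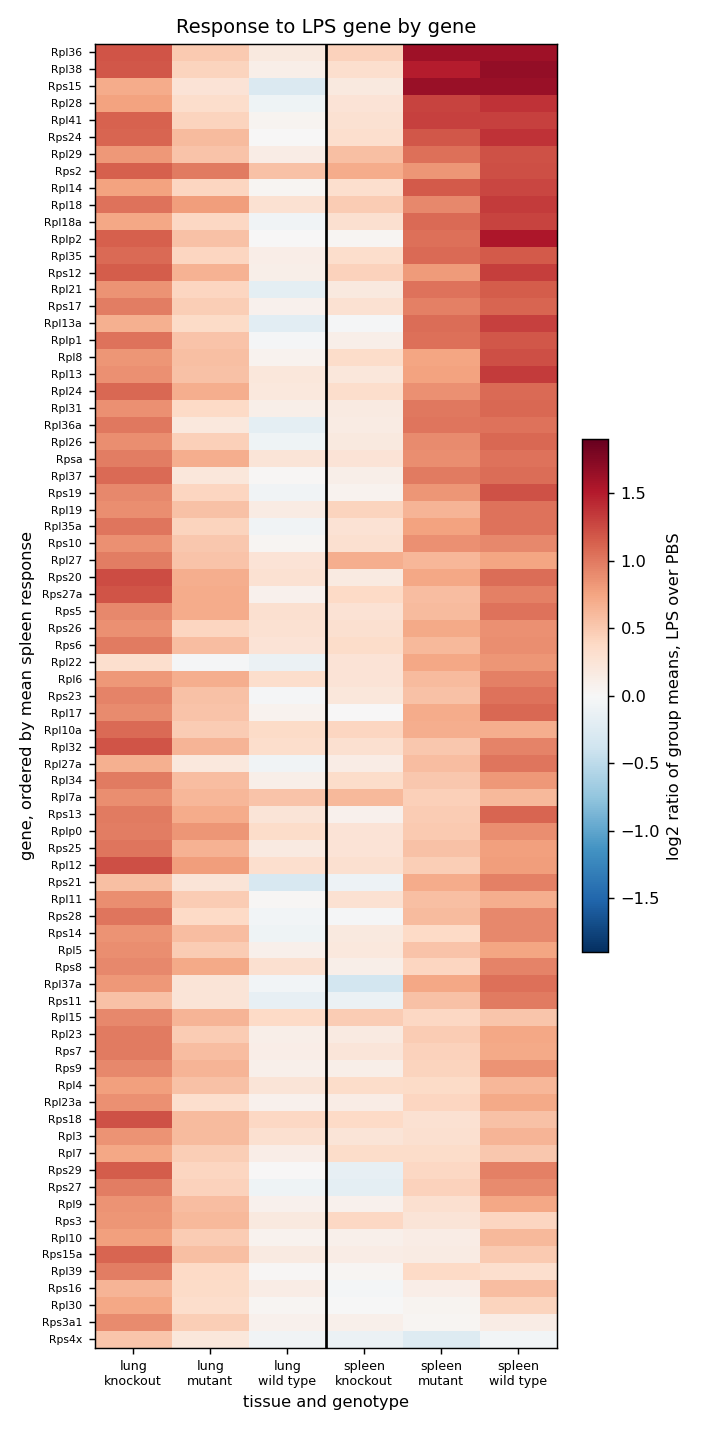
Log2 ratio of LPS over PBS group means for each of the 77 genes (rows, ordered by their mean ratio in spleen) in knockout, mutant and wild type lung (left) and spleen (right). Mutant and wild type spleen run from the darkest red at Rpl36, Rpl38 and Rps15 (up to 1.66) to near white at Rps3a1 and Rps4x, an order that the lung columns do not follow.

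The stalk proteins showed the same genotype order in spleen. Rplp2 averaged 2130 with LPS and 2080 with PBS in knockout spleens, 4390 with LPS and 2130 with PBS in mutant spleens, and 3870 with LPS and 1340 with PBS in wild type spleens. Rplp1 averaged 4130 with LPS and 3830 with PBS in knockout mice, 8280 with LPS and 4000 with PBS in mutant mice, and 6340 with LPS and 2810 with PBS in wild type mice. Rplp0 moved less, with 7680 with LPS and 6420 with PBS in knockout mice, 10300 with LPS and 7270 with PBS in mutant mice, and 9390 with LPS and 5070 with PBS in wild type mice. Both arms of the stalk were thus level in the knockout and more than doubled in the other genotypes. Rpsa had the highest mean of all, 16300 with LPS and 8880 with PBS in mutant spleens, beside 9410 with LPS and 7860 with PBS in the knockout and 12600 with LPS and 6150 with PBS in wild type mice. Rpl13a averaged 5400 with LPS and 5460 with PBS in knockout mice, 11100 with LPS and 5330 with PBS in mutant mice, and 9310 with LPS and 3790 with PBS in wild type mice, so the gene with a low ratio in lung had one of the higher ratios in mutant and wild type spleen.

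Rps6, Rpl5, Rpl11 and Rps27a stood nearer the middle. Rps6 averaged 7040 with LPS and 5530 with PBS in knockout spleens, 8210 with LPS and 5360 with PBS in mutant spleens, and 8090 with LPS and 4390 with PBS in wild type spleens. Rpl5 averaged 4580 with LPS and 4000 with PBS in knockout mice, 5620 with LPS and 3880 with PBS in mutant mice, and 5410 with LPS and 3210 with PBS in wild type mice. Rpl11 averaged 2900 with LPS and 2380 with PBS in knockout mice, 3310 with LPS and 2230 with PBS in mutant mice, and 2960 with LPS and 1830 with PBS in wild type mice. The 5S-binding pair therefore lay below the median in the wild type. Rps27a averaged 3000 with LPS and 2310 with PBS in knockout mice, 3420 with LPS and 2280 with PBS in mutant mice, and 3590 with LPS and 1850 with PBS in wild type mice. Rps3 averaged 4250 with LPS and 3250 with PBS in knockout mice, 3870 with LPS and 3280 with PBS in mutant mice, and 4060 with LPS and 3050 with PBS in wild type mice, with little between the genotypes. The large and small subunits had medians of 0.26 and 0.19 in the knockout, 0.72 and 0.56 in the mutant, and 1.03 and 0.94 in the wild type.

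The genes stood in a similar order of response in mutant and wild type mice, with weaker correlations to the knockout and between the tissues. In spleen the log2 ratios of the 77 genes had a Spearman correlation of 0.88 between mutant and wild type, 0.10 between knockout and wild type, and 0.24 between knockout and mutant. In lung these were 0.73, 0.36 and 0.47. Between lung and spleen they were 0.25 in the knockout, -0.21 in the mutant and -0.26 in the wild type. GC content of the transcript moved with the spleen ratios, with a Spearman correlation of 0.22 in the knockout, 0.42 in the mutant and 0.47 in the wild type, beside 0.04 to 0.10 in lung. These correlations run across genes of the same libraries, and the part of GC content in the spread was not tested.

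The size of the response depends on the scale, and the order of the genotypes' medians does not. The summed means were higher with LPS in every pair, by 0.36 to 0.50 on the log2 scale, and setting the sums equal lowers every gene and the median of all genes by that amount. On equal sums the median of the 77 genes was 0.50 in knockout lungs, 0.01 in mutant lungs and below 0, at -0.26, in wild type lungs. In spleen it was below 0, at -0.21, in the knockout, 0.18 in the mutant and 0.57 in the wild type. At least 1.5-fold higher were then 24 of the 77 genes in knockout lungs, beside 16.9% of all genes, 0 in mutant lungs, beside 14.3%, and 0 in wild type lungs, beside 14.9%. In spleen they were 0 in the knockout, beside 15.9%, 14 in the mutant, near its background of 14.9%, and 37 in the wild type, beside 14.1%. So the ribosomal protein genes of wild type lung and of knockout spleen were higher or lower with LPS depending on the scale, and on both scales they stood above the median of all genes.

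Markers of other cells moved with treatment and genotype too. In spleen the 10 B cell markers summed to 4797 with LPS and 14680 with PBS in knockout mice, 4999 with LPS and 13890 with PBS in mutant mice, and 8351 with LPS and 11200 with PBS in wild type mice. The 9 neutrophil markers measured summed to 2832 with LPS and 2270 with PBS in knockout spleens, 11550 with LPS and 2519 with PBS in mutant spleens, and 4324 with LPS and 3803 with PBS in wild type spleens. Pancreatic acinar markers, 7 of 7 of them detected, summed to 12440 with LPS and 3807 with PBS in knockout mice, 31010 with LPS and 24550 with PBS in mutant mice, and 20550 with LPS and 1579 with PBS in wild type mice. The spleen groups thus differed in lymphocyte, neutrophil and pancreatic RNA. In lung, neutrophil markers were alike, with 25260 with LPS and 2791 with PBS in knockout mice, 25160 with LPS and 3492 with PBS in mutant mice, and 23800 with LPS and 3094 with PBS in wild type mice. The 10 B cell markers in lung summed to 1508 with LPS and 1621 with PBS in knockout lungs, 1082 with LPS and 1742 with PBS in mutant lungs, and 708 with LPS and 1199 with PBS in wild type lungs. With LPS these sums stood in the genotype order of the ribosomal protein genes, but the B cell median log2 ratios, -0.32, -0.89 and -0.74, did not. The 9 T cell markers measured in lung did not stand in that order with LPS. They summed to 562 with LPS and 787 with PBS in knockout lungs, 605 with LPS and 863 with PBS in mutant lungs, and 406 with LPS and 717 with PBS in wild type lungs. The 6 erythroid markers measured summed to 13010 with LPS and 6300 with PBS in knockout lungs, 8280 with LPS and 6262 with PBS in mutant lungs, and 8072 with LPS and 6667 with PBS in wild type lungs. Skeletal muscle markers in lung were highest in the knockout, above all with PBS. They summed to 656 with LPS and 2858 with PBS in knockout lungs, 59.3 with LPS and 71.0 with PBS in mutant lungs, and 66.9 with LPS and 72.8 with PBS in wild type lungs. Hepatocyte markers in lung summed to 4139 with LPS and 197 with PBS in knockout mice, 857 with LPS and 26.8 with PBS in mutant mice, and 443 with LPS and 569 with PBS in wild type mice. In spleen the hepatocyte markers summed to 4263 with LPS and 164 with PBS in knockout spleens, 3066 with LPS and 25.3 with PBS in mutant spleens, and 260 with LPS and 1558 with PBS in wild type spleens. The part of these cells in the ribosomal protein results was not tested.

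Paralog pairs did not all move as a pair. Rpl22 binds RNA and is needed for alpha-beta T cell development in mice, and Rpl22l1 is its paralog. In lung Rpl22 averaged 1540 with LPS and 1230 with PBS in knockout mice, 1280 with LPS and 1300 with PBS in mutant mice, and 1190 with LPS and 1290 with PBS in wild type mice. Rpl22l1 averaged 460 with LPS and 170 with PBS in knockout mice, 380 with LPS and 243 with PBS in mutant mice, and 325 with LPS and 256 with PBS in wild type mice. The log2 ratios were 0.32, -0.02 and -0.12 for Rpl22 and 1.43, 0.64 and 0.34 for Rpl22l1, so the paralog was the higher responder in each genotype. In spleen Rpl22 averaged 2000 with LPS and 1670 with PBS in knockout mice, 2330 with LPS and 1400 with PBS in mutant mice, and 2400 with LPS and 1340 with PBS in wild type mice. Rpl22l1 in spleen averaged 613 with LPS and 401 with PBS in knockout mice, 457 with LPS and 309 with PBS in mutant mice, and 561 with LPS and 344 with PBS in wild type mice. There the log2 ratios were 0.26, 0.73 and 0.84 for Rpl22 and 0.61, 0.56 and 0.70 for Rpl22l1, so the paralog was the higher responder in the knockout only.

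Rpl36al is an autosomal copy of the X-linked Rpl36a. In lung Rpl36a averaged 1400 with LPS and 695 with PBS in knockout mice, 1040 with LPS and 908 with PBS in mutant mice, and 855 with LPS and 974 with PBS in wild type mice. Rpl36al averaged 1150 with LPS and 437 with PBS in knockout mice, 931 with LPS and 538 with PBS in mutant mice, and 812 with LPS and 577 with PBS in wild type mice. The copy was the higher responder in each genotype, at 1.39, 0.79 and 0.49 against 1.01, 0.20 and -0.19. In spleen Rpl36a averaged 1860 with LPS and 1670 with PBS in knockout mice, 2880 with LPS and 1420 with PBS in mutant mice, and 2470 with LPS and 1210 with PBS in wild type mice. Rpl36al in spleen averaged 1160 with LPS and 786 with PBS in knockout mice, 1530 with LPS and 652 with PBS in mutant mice, and 1460 with LPS and 625 with PBS in wild type mice. Near-identical sequence may share reads between them.

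Rpl7l1, a relative of Rpl7, was the one entry that was about doubled in lung whatever the genotype. It averaged 1010 with LPS and 481 with PBS in knockout lungs, 997 with LPS and 544 with PBS in mutant lungs, and 979 with LPS and 512 with PBS in wild type lungs, and it was the single entry of 85 with a mean of at least 10 that passed 1.5-fold in the wild type. Rpl7 averaged 5950 with LPS and 3580 with PBS in knockout mice, 4960 with LPS and 3580 with PBS in mutant mice, and 4630 with LPS and 4240 with PBS in wild type mice. In spleen Rpl7l1 averaged 559 with LPS and 322 with PBS in knockout mice, 442 with LPS and 305 with PBS in mutant mice, and 446 with LPS and 380 with PBS in wild type mice. There its log2 ratios were 0.79, 0.53 and 0.23, an order of genotypes opposite to that of most of the 77 genes.

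Rps27l, a p53 target in human cells, showed the same turn in spleen. It averaged 349 with LPS and 159 with PBS in knockout spleens, 250 with LPS and 131 with PBS in mutant spleens, and 279 with LPS and 189 with PBS in wild type spleens, with log2 ratios of 1.13, 0.93 and 0.56. Its partner Rps27 averaged 2080 with LPS and 2370 with PBS in knockout mice, 3100 with LPS and 2290 with PBS in mutant mice, and 3250 with LPS and 1740 with PBS in wild type mice. In lung Rps27l averaged 405 with LPS and 215 with PBS in knockout mice, 342 with LPS and 259 with PBS in mutant mice, and 321 with LPS and 261 with PBS in wild type mice. Rps27 in lung averaged 1920 with LPS and 977 with PBS in knockout mice, 1770 with LPS and 1310 with PBS in mutant mice, and 1360 with LPS and 1440 with PBS in wild type mice, so both partners followed the lung order.

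Other pairs were uneven in level. Rps4l averaged 181 with LPS and 177 with PBS in knockout lungs, 179 with LPS and 186 with PBS in mutant lungs, and 149 with LPS and 200 with PBS in wild type lungs, and so did not share the response of Rps4x, at 5760 with LPS and 4010 with PBS in knockout mice, 5130 with LPS and 4410 with PBS in mutant mice, and 4740 with LPS and 4940 with PBS in wild type mice. Rpl3l, known from heart and skeletal muscle, averaged at most 21.9 in any lung and 1.26 in any spleen group, beside lung means of 2960 to 5340 for Rpl3. Rpl39l, known from testis, averaged at most 2.18 in any lung and 4.59 in any spleen group and was at 0 in knockout lungs with LPS, where 3 reads over the group would give 1.46. Rpl39 averaged 808 with LPS and 410 with PBS in knockout lungs, 666 with LPS and 510 with PBS in mutant lungs, and 555 with LPS and 549 with PBS in wild type lungs. In spleen Rpl39 averaged 1010 with LPS and 989 with PBS in knockout mice, 1100 with LPS and 847 with PBS in mutant mice, and 1140 with LPS and 913 with PBS in wild type mice. Rps19bp1 in spleen averaged 151 with LPS and 72.0 with PBS in knockout mice, 161 with LPS and 56.6 with PBS in mutant mice, and 161 with LPS and 55.0 with PBS in wild type mice, and so was at least doubled in each genotype.

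Fau and Gnb2l1, parts of the ribosome that the symbol rule misses, were alike in part. Fau, which makes a small subunit protein fused to a ubiquitin-like protein, averaged 2210 with LPS and 1330 with PBS in knockout lungs, 2110 with LPS and 1620 with PBS in mutant lungs, and 1620 with LPS and 1670 with PBS in wild type lungs. In spleen Fau averaged 2800 with LPS and 3090 with PBS in knockout mice, 6510 with LPS and 2900 with PBS in mutant mice, and 5480 with LPS and 1900 with PBS in wild type mice. Fau thus followed the lung order and the spleen order. Gnb2l1, the scaffold Rack1 of the small subunit, averaged 4330 with LPS and 2460 with PBS in knockout lungs, 3940 with LPS and 2540 with PBS in mutant lungs, and 3750 with LPS and 3050 with PBS in wild type lungs, with log2 ratios of 0.82, 0.63 and 0.30 in the lung order. In spleen it averaged 4590 with LPS and 3360 with PBS in knockout spleens, 4330 with LPS and 3690 with PBS in mutant spleens, and 4310 with LPS and 3110 with PBS in wild type spleens, without the spleen order.

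Genes that build ribosomes were higher with LPS in every genotype and both tissues, by the medians on either scale. The 33 assembly factors, such as Nop58 and Fbl of the small nucleolar RNA complexes, had a median log2 ratio of 1.59 in knockout lungs, 1.33 in mutant lungs and 1.11 in wild type lungs, with 31 of 33 at least 1.5-fold higher in each. In spleen the medians were 1.70, 1.59 and 1.42, with 33, 31 and 31 of 33. Nop58 averaged 1730 with LPS and 317 with PBS in knockout lungs, 1290 with LPS and 262 with PBS in mutant lungs, and 1060 with LPS and 314 with PBS in wild type lungs. Myc, the transcription factor that drives ribosome production, averaged 1280 with LPS and 63.8 with PBS in knockout lungs, 903 with LPS and 76.8 with PBS in mutant lungs, and 803 with LPS and 71.4 with PBS in wild type lungs. Wild type lung therefore had higher assembly factors and Myc with LPS. Its ribosomal protein messages were near level on the deposited scale (median 0.10) and lower on equal sums (median -0.26). The list of RNA polymerase I and its factors also held Myc and Mdm2. Its medians were 0.79, 0.64 and 0.60 in lung and 0.82, 0.96 and 0.84 in spleen, in the order knockout, mutant, wild type. Between 9 and 11 of its 16 genes were at least 1.5-fold higher.

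By their medians, translation factors whose messages also carry the TOP tract followed the lung order, and in spleen the medians stood in the spleen order with small gaps. Their 21 genes had medians of 0.72 in knockout lungs, 0.48 in mutant lungs and 0.17 in wild type lungs, with 14, 8 and 2 at least 1.5-fold higher. In spleen the medians were 0.42, 0.45 and 0.48, with 5, 8 and 9. The counts of all 5 lists of related genes stand beside 27%, 25.1% and 22.8% of all genes in knockout, mutant and wild type lung, and 27%, 26.4% and 24.9% in spleen. Several are near or below that background, among them the TOP factors in knockout spleen, the mitochondrial ribosomal proteins in mutant lung and the respiratory chain subunits in knockout lung. Eef1a1, the factor that brings transfer RNA, averaged 33500 with LPS and 20400 with PBS in knockout lungs, 30800 with LPS and 19500 with PBS in mutant lungs, and 29600 with LPS and 24900 with PBS in wild type lungs. Eef1a1, Fau, Gnb2l1, Eef1b2, Tpt1 and Npm1 of this list kept the lung order, but Eef2 and Pabpc1 did not. In knockout, mutant and wild type lungs the log2 ratios were 0.09, 0.21 and 0.12 for Eef2. For Pabpc1 they were 0.78, 0.72 and 0.75. Mitochondrial ribosomal proteins, which make another ribosome, had medians of 0.44, 0.19 and 0.06 in lung, with 29 of 79, 17 of 78 and 8 of 78 genes at least 1.5-fold higher. In spleen their medians were 0.41, 0.61 and 0.62, with 33, 41 and 41 of 78. Respiratory chain subunits had medians of 0.30, 0.10 and -0.11 in lung, with 21, 3 and 1 of 88, and 0.14, 0.59 and 0.50 in spleen, with 8, 42 and 31 of 84. The lung order was thus seen in the medians of each of these lists, and it is not called particular to the ribosomal proteins. On equal sums each median falls by the same 0.36 to 0.50, so that those under that size turn below 0.

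**Figure D4:**
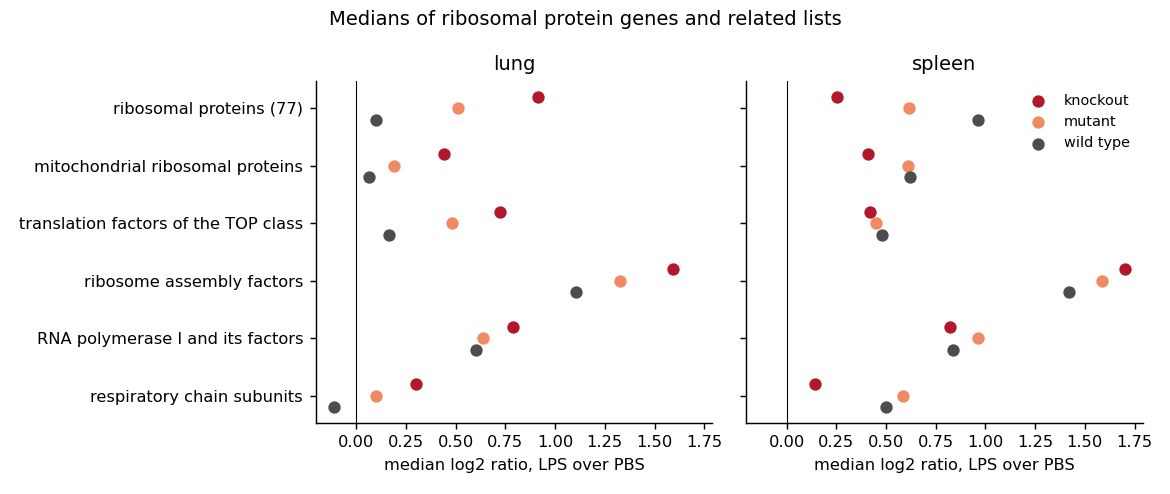
Median log2 ratio of LPS over PBS group means for the 77 ribosomal protein genes and 5 lists of related genes in knockout, mutant and wild type lung (left) and spleen (right). In lung each list lies in the order knockout, mutant, wild type, and in spleen the ribosomal proteins run from 0.25 to 0.96 while the TOP factors lie together between 0.42 and 0.48.

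Between genotypes within a treatment, no ribosomal protein entry was called in any of the 12 comparisons of the authors' deposited table at an adjusted p under 0.05, and none up to 0.1. Between 81 and 88 of the 88 entries had an adjusted p. Of all genes tested in the authors' deposited table, the share called in lung with LPS was 0.441% for knockout over wild type, 0.243% for knockout over mutant and 0.0715% for mutant over wild type. In lung with PBS it was 0.0421% for knockout over wild type, 0.0523% for knockout over mutant and 0.00524% for mutant over wild type. In spleen with LPS it was 0.0241% for knockout over wild type, 0.177% for knockout over mutant and 0.00545% for mutant over wild type. In spleen with PBS it was 0.16% for knockout over wild type, and 0% for the other two comparisons. With so few calls among all genes, 0 of 88 is near the background. Unadjusted p-values were not used here.

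In 10 of the 12 comparisons the folds of most genes nonetheless lay to one side. In the authors' deposited table the median log2 fold of the 77 genes in lung with LPS was 0.42 for knockout over wild type, with 77 of 77 above 0, 0.21 for knockout over mutant, with 72, and 0.22 for mutant over wild type, with 77. For PBS lungs the medians of the authors' deposited table were -0.37 for knockout over wild type, with 77 of 77 below 0, -0.17 for knockout over mutant, with 74 below 0, and -0.17 for mutant over wild type, with 72 below 0. In spleen with LPS the authors' deposited table gave -0.32 for knockout over wild type, with 69 below 0, -0.35 for knockout over mutant, with 66 below 0, and 0.03 for mutant over wild type, split into 45 above and 32 below 0. In spleen with PBS the medians in the authors' deposited table were 0.36 for knockout over wild type, with 77 above 0, 0.03 for knockout over mutant, with 48 above 0, and 0.35 for mutant over wild type, with 75 above 0. Over all tested genes the medians lay between -0.04 and 0.01. Comparisons of one tissue and treatment share libraries, and genes move together, so these sides count as few observations. With equal sums the median of mutant over wild type spleen with LPS, 0.02 over all entries, turned to -0.07, and every other median kept its sign.

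**Figure D5:**
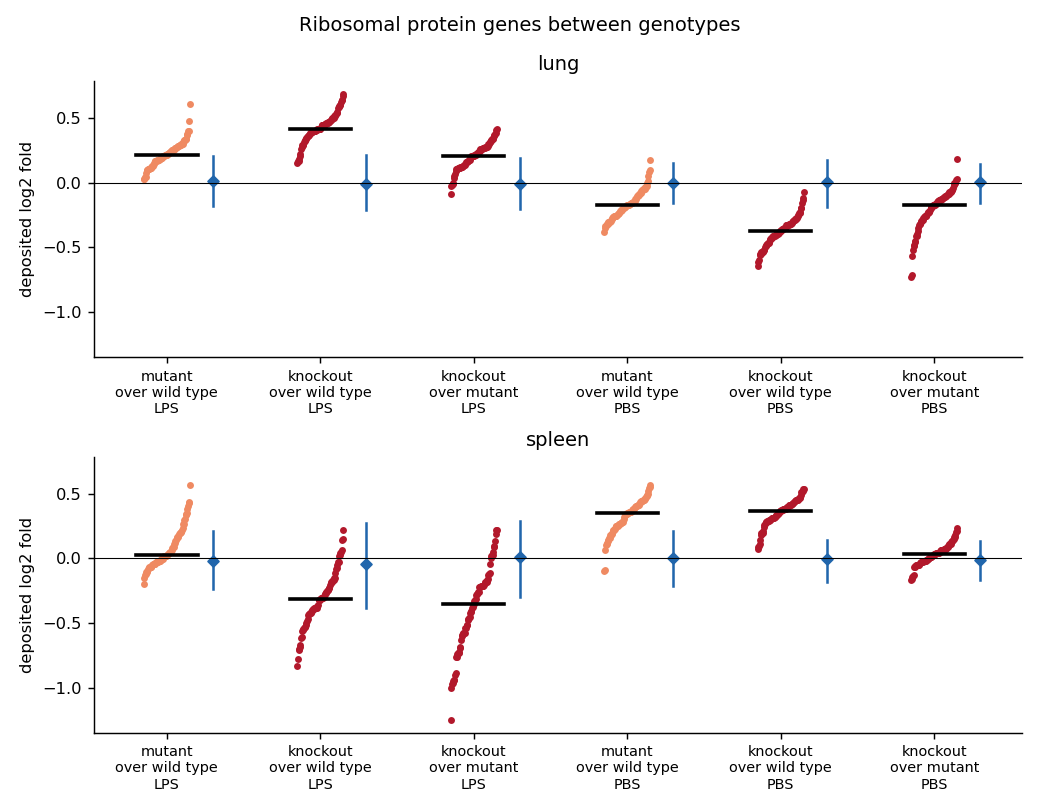
Deposited log2 folds of the 77 ribosomal protein genes (points) in each comparison of genotypes, for lung (top) and spleen (bottom), with their median (black bar) and, in blue, the median and quartiles of all tested genes. In lung the knockout over wild type folds lie above 0 with LPS (median 0.42) and below 0 with PBS (-0.37), and in spleen the sides are the other way round (-0.32 and 0.36).

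Single genes show how far this was from the threshold, with the largest folds taken among entries with an overall mean of at least 10. Among these entries the authors' deposited table had its smallest adjusted p, 0.186, at Rps24 in lung with LPS (log2 fold 0.67 for knockout over wild type), at 7000 in knockout and 4370 in wild type lungs. The largest folds of that comparison in the authors' deposited table were 0.69 for Rpl36a, at 1400 in knockout and 855 in wild type lungs with an adjusted p of 0.288, and 0.69 for the second entry of Rps27, at 515 in knockout and 316 in wild type lungs with an adjusted p of 0.194. Neither passed. For mutant over wild type lung with LPS the largest were Rps28 at 0.61, with means of 774 in mutant and 503 in wild type lungs, and Rps29 at 0.48, in the authors' deposited table. Among PBS lungs the authors' deposited table had its largest differences of knockout from wild type, over the 77 genes, at -0.64 for Rps29, at 404 in knockout and 642 in wild type lungs, and -0.61 for Rpl37, at 623 in knockout and 965 in wild type lungs, both with an adjusted p of 1.

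In spleen, among the same entries, the authors' deposited table had its largest difference at Rps15 with LPS, where knockout over mutant gave -1.25 (adjusted p 0.342), with means of 4850 in knockout and 13300 in mutant spleens. Rpl37a followed in the authors' deposited table at -1.0 (adjusted p 0.319), with 1520 in knockout and 3260 in mutant spleens. Against the wild type with LPS the authors' deposited table gave knockout spleens -0.83 for Rpl37a (adjusted p 0.588) and -0.78 for Rplp2 (adjusted p 0.628). None of these passed. Rps27l and Rpl7l1 lay on the other side in the authors' deposited table, at 0.29 and 0.32 for knockout over wild type spleen with LPS. For PBS spleens the largest folds of the authors' deposited table were 0.54 for Rplp2 and 0.53 for Rps13 in knockout over wild type spleen, and 0.57 for Rplp2 and 0.55 for Rpl8 in mutant over wild type spleen. For mutant over wild type spleen with LPS the authors' deposited table gave 0.57 for Rps15 and 0.44 for Rpl41, both with an adjusted p of 1. Of the related lists, the authors' deposited table called 1 gene: the assembly factor Ncl, nucleolin, rose in knockout over wild type lung with LPS (log2 fold 0.63, adjusted p 0.0289), with means of 10920 in knockout and 7041 in wild type lungs.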

How the data were processed

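Per the submitters' processing notes, STAR 2.5.3a, Bowtie2, SAMtools, bedtools and DESeq2 were used with the mm10 genome, in an order and with settings not given in the sources used here, nor is the counting or its use of strand. Each deposited table, 1 per tissue, holds the authors' group means, a normalized signal to 3 significant digits for most genes, and for 6 comparisons of genotypes the authors' log2 folds and an adjusted p, which is treated as a score. The deposited log2 folds are not plain log2 ratios of the group means and can be much smaller. Xist, for mutant over wild type lung with LPS, had a deposited log2 fold of 2.11 at means of 4510 and 14.5. With plain ratios, no median fold of the ribosomal protein entries between genotypes moved by more than 0.05. No columns of single libraries are in use. Broken cells led to the loss of 6 of 19476 lung lines and 5 of 18850 spleen lines, and 1026 spleen symbols split across columns were rejoined.

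For LPS against PBS the log2 ratio of group means plus a pseudocount of 1 was taken, over entries that reached a mean of 10 under either treatment. The planned fits on single libraries, leaving out replicates included, were replaced by these means and the authors' comparisons at an adjusted p under 0.05. Group sizes, 3 LPS and 2 PBS libraries, and the authors' means allow no SD. Depth came from the steps between low means, accepted where whole steps made up 98% of low values within 0.5%. Tested on simulated data for wild type PBS lungs of 19470 entries, the step finder recovered 10 of 10 groups of 2 libraries. Groups of 3 libraries and libraries with near-equal size factors were not simulated, so the depths of such groups are untested. Planted median log2 ratios of 0.5 and 1.0 came back as 0.499 and 0.995. A mean of 0 is given the floor of 3 reads per group, for counting error only. Transcript lengths came from the annotation, start sequences from RefSeq on GRCm38.p6.

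The text names subunits with a known role, paralog pairs, the 5 highest and 5 lowest mean responses per tissue, the 3 highest and lowest levels per kb, the largest folds per comparison and the ribosome genes outside the symbol rule. Other genes named, such as Rps24, Nop58, Myc, Eef1a1 and Ncl, were chosen after their values were seen. Members and lists were chosen with earlier results of these data known. Alternatives were other pseudocounts, filters, scales, member sets and the authors' threshold. Python 3.11.15, numpy 2.4.6, pandas 2.3.3, scipy 1.17.1 and matplotlib 3.10.9 were used.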

Additional observations from a re-analysis of the deposited data

How the results depend on the processing

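Without single libraries no replicate could be left out and no limma or count test run. No paired analysis was possible because the tables hold group means only and the labels give the groups no shared replicate numbers. Scaling to equal sums moved each median response of all entries: to 0.49 in knockout, 0.0087 in mutant and -0.25 in wild type lungs, and to -0.20 in knockout, 0.20 in mutant and 0.57 in wild type spleens. The other 6 settings (2 pseudocounts, 2 filters, a median of 0, standard proteins only) moved no median by more than 0.03. Without the 20 highest genes the shares of the lung table were 2.68% with LPS and 1.88% with PBS in the knockout, 2.25% and 2.19% in the mutant, and 2.05% and 2.43% in the wild type. In spleen they were 6.22% and 6.71% in the knockout, 7.43% and 6.46% in the mutant, and 7.55% and 5.48% in the wild type. With the 77 standard proteins only, the lung shares were 2.44% and 1.74%, 2.07% and 2.03%, and 1.89% and 2.23%, and the spleen shares 5.53% and 6.47%, 7.47% and 6.19%, and 7.32% and 4.95%, in the same order. So LPS stood on the same side of PBS in each pair under both settings. The median folds between genotypes moved by at most 0.09, and the number of called entries was 0 at both thresholds and with a filter on low means. Means of groups of 2 and 3 libraries limit what can be said of any one gene, and entries under a mean of 10 rest on few reads.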

Other observations

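Entries named as pseudogenes of ribosomal protein genes were kept apart. Rpl14-ps1 averaged 428 with LPS and 314 with PBS in knockout lungs, 337 with LPS and 281 with PBS in mutant lungs, and 265 with LPS and 258 with PBS in wild type lungs. In spleen Rpl14-ps1 averaged 572 with LPS and 323 with PBS in knockout mice, 908 with LPS and 255 with PBS in mutants, and 773 with LPS and 227 with PBS in wild types. Its parent Rpl14 averaged 3150 with LPS and 2520 with PBS in knockout spleens, 5630 with LPS and 2500 with PBS in mutant spleens, and 4210 with LPS and 1750 with PBS in wild type spleens. Rps15a-ps6 averaged 204 with LPS and 171 with PBS in knockout lungs, 187 with LPS and 167 with PBS in mutant lungs, and 121 with LPS and 149 with PBS in wild type lungs. Rps19-ps3 averaged 40.0 with LPS and 18.1 with PBS in knockout spleens, 38.2 with LPS and 18.8 with PBS in mutant spleens, and 42.2 with LPS and 13.4 with PBS in wild type spleens. Whether these values are reads of the parent genes was not tested.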
